A study of Mus musculus with 30 samples.

Results

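The 10 genes described here were Trem2, Tyrobp, Syk, Clec7a, Itgax, Lpl, Ch25h, Cst7, Spp1 and Gpnmb, the TREM2 receptor pathway and genes of disease-associated microglia. They were taken by symbol from the deposited table, which lists 13788 genes, and all 10 were in it. Each was followed in 30 RNA sequencing libraries of primary mouse microglia, and none of its values lay at the floor of 1 that the table carries. The lowest was a normalised signal of 17.6 for Ch25h, and the fewest reads behind any of these values were 11.

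TREM2 is a surface receptor of microglia that binds lipids, lipoproteins and amyloid-beta. It has little cytoplasmic tail and signals through the adaptor TYROBP (DAP12), whose tyrosine motif recruits the kinase SYK. In mouse models of amyloid disease, microglia near plaques take on a state called disease-associated microglia, or DAM, in which genes such as Lpl, Cst7, Itgax, Spp1, Gpnmb, Clec7a and Ch25h are raised, and full entry into that state depends on TREM2.

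The cultures came from brains of mice labelled PD-1 KO or WT, and the microglia were shaken off the primary cultures before use. PD-1, encoded by Pdcd1, is an inhibitory receptor. Each label had 5 conditions of 3 libraries: 0 h, and 2 h and 8 h with conditioned medium that held amyloid-beta or without it. The labels name no further allele, no medium for the untreated cultures and no animal behind each library, so every p-value rests on how far the libraries of a group differ, which may be technical. Depth over the listed genes ran from 4648748 to 43404845 reads in PD-1 KO-labelled libraries and from 4227019 to 48509985 reads in WT-labelled libraries.

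The genotype labels could not be checked with Pdcd1 itself. Its signal was 6.02 to 25.3 in all 15 PD-1 KO-labelled libraries, from 3 to 46 reads, and lay at the floor of 1 in all 15 WT-labelled libraries. At the level of the whole gene this goes against the labels. Which part of the gene the knockout removes is not given in the sources used here, so reads from the rest of the gene check nothing. Directions below are therefore given for libraries by their label.

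These promoters are shown because their genes carry the strongest label differences below, in both directions, or head the pathway. Each line holds the 250 bases before the annotated start, 5′ to 3′ on the gene's strand, from RefSeq on GRCm38.p6, whose table matched 8 of the 10 genes, Tyrobp and Lpl being the others. Capitals mark matches on either strand to GAGGAA, the core that PU.1 binds (its reverse reads TTCCTC), or to TGANTCA, the AP-1 site.
Trem2 (chr17:48346151-48346400, + strand): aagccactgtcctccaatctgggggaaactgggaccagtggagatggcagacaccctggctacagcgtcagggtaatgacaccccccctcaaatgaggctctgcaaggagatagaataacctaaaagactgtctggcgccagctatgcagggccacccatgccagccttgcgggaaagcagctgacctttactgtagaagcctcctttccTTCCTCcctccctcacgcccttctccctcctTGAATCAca
Clec7a (chr6:129472780-129473029, - strand): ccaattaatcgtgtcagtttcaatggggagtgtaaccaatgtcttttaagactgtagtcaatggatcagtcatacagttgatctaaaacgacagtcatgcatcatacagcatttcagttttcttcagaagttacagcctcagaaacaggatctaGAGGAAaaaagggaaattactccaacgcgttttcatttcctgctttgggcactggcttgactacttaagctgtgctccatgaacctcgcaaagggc
Gpnmb (chr6:49036268-49036517, + strand): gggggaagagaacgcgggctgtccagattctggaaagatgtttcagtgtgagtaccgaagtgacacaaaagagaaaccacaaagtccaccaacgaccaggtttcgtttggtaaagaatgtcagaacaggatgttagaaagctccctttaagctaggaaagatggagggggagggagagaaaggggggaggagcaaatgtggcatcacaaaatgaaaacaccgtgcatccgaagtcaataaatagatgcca
Cst7 (chr2:150570165-150570414, + strand): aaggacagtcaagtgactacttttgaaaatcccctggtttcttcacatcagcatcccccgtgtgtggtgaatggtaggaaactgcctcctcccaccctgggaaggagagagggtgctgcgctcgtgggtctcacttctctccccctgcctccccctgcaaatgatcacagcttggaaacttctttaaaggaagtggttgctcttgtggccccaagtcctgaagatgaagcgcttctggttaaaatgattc
Ch25h (chr19:34475149-34475398, - strand): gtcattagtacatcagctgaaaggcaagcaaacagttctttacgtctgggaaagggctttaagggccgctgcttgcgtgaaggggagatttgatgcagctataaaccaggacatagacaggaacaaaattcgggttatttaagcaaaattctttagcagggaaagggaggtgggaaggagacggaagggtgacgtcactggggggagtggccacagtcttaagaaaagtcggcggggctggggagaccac

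The Trem2 window held a TGANTCA match from -9 to -3, with A at N and so not the AP-1 site itself. It also held a GAGGAA match on the reverse strand from -40 to -35, counted from the base before the start as -1. The Clec7a window held GAGGAA from -96 to -91. The windows of Gpnmb, Cst7 and Ch25h held neither motif. Over the 11 windows of the 8 genes, 5 held GAGGAA and 2 held TGANTCA. The pair of Clec7a windows overlap each other, and their GAGGAA is the same stretch of bases, counted in both. Among all 32851 promoter windows of that length, 23.3% held GAGGAA and 6.75% held TGANTCA. The E-box CACGTG, found in 6.02% of all windows, and CATGTG, found in 12.3% and part of the site of MITF family factors, were in 0 of the 11. These are matches of letters, not sites shown to be bound.

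Over the 5 conditions, Gpnmb, Clec7a, Tyrobp, Trem2, Lpl and Spp1 were lower in PD-1 KO-labelled than in WT-labelled libraries, and Ch25h, Cst7 and Itgax were higher, while Lpl and Spp1 changed sign under quantile normalization. Syk, the kinase below the receptor, did not pass the test. Thus 9 of the 10 genes passed, beside 59.5% of the 13722 genes tested. The 3 higher ones stand beside 30.3% of all tested genes that were higher, and the 6 lower ones beside 29.1% that were lower. The median log2 difference of the 10 genes was -0.33, beside -0.02 for all tested genes. Values were compared as log2 of the signal plus 1 with limma's moderated test over all 30 libraries, with Benjamini-Hochberg adjustment over all tested genes and a threshold of 0.05. A log2 difference below is PD-1 KO minus WT label with its standard error, and a level is the deposited normalised signal. The libraries did not overlap by label for 34.1% of all tested genes at 0 h and 45.8% at 2 h. With amyloid-beta for 2 h that share was 43.2%, at 8 h 40.4% and at 8 h with amyloid-beta 55.6%.

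**Figure D1:**
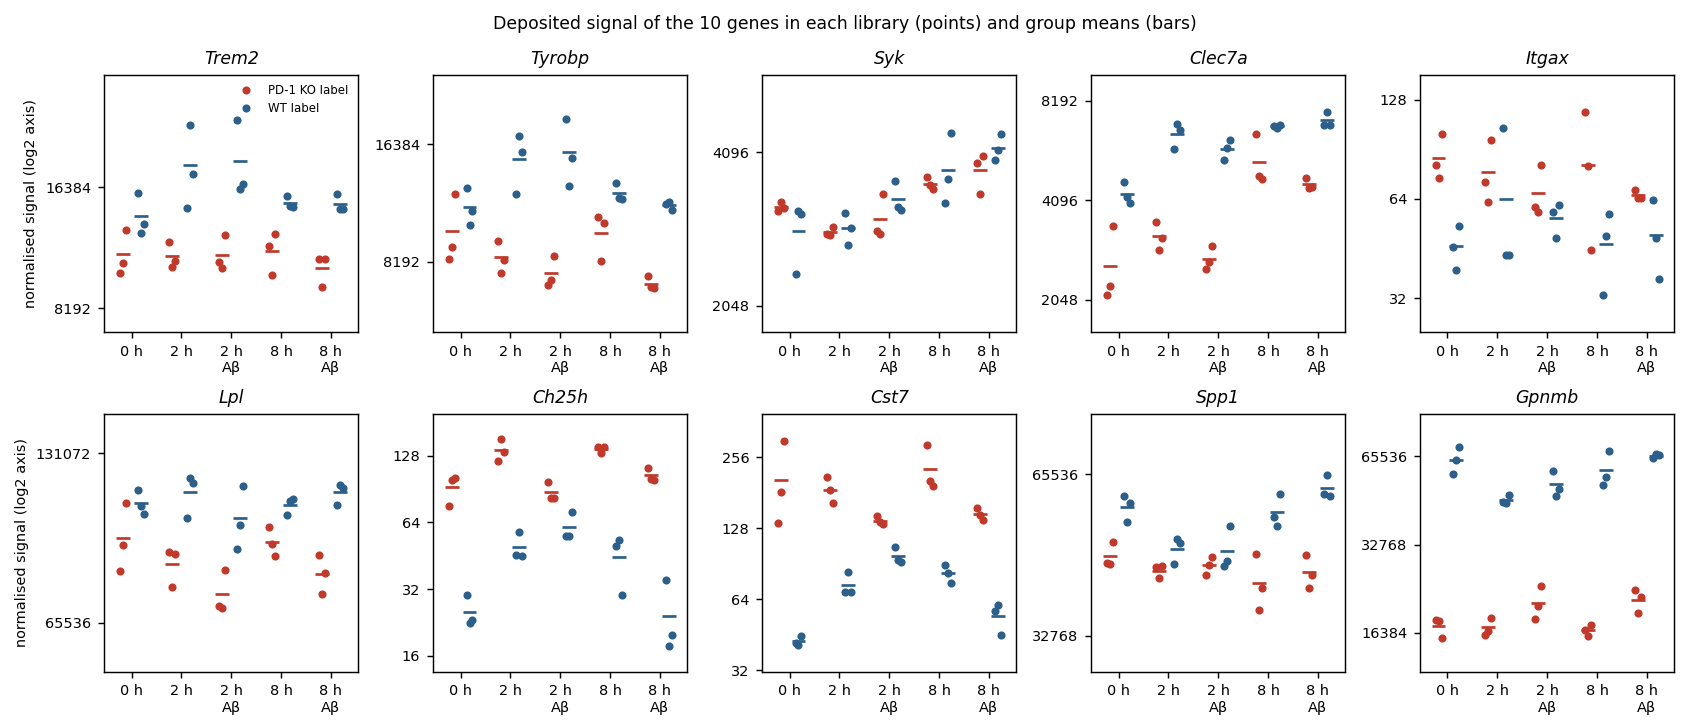
Normalised signal of the 10 genes (log2 axis, a scale of its own for each gene) in every library, with red points for PD-1 KO-labelled and blue points for WT-labelled libraries, bars for the means of 3, and Aβ for amyloid-beta medium. All 15 PD-1 KO-labelled libraries lie below all 15 WT-labelled ones for Gpnmb and above them for Cst7 and Ch25h, whereas the points of Syk mix.

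The receptor Trem2 (chromosome 17, 48346401 to 48354147, GRCm38) ran from 9266 to 12855 in PD-1 KO-labelled libraries and from 12617 to 24081 in WT-labelled ones, with medians of 10736 and 15597 (n = 15 each). At 0 h its signal was 10023, 10627 and 12855 in PD-1 KO-labelled libraries and 15827, 12617 and 13290.1 in WT-labelled ones, and these groups overlapped. At 2 h without amyloid-beta it was 11970.1, 10349 and 10736 in PD-1 KO-labelled libraries, against 14590.3, 23493 and 17655 in WT-labelled ones. With amyloid-beta for 2 h the values were 10657, 10294 and 12458.5 in PD-1 KO-labelled libraries and 24081, 16240 and 16699 in WT-labelled ones. The groups no longer overlapped at 2 h, where the 2 highest values of all stood in 1 WT-labelled library of each medium. The summed signal of 14 pan-microglia and macrophage genes was the highest of its group in each of these libraries. It was 127155 with amyloid-beta and 120554 without it. By the mean log2 level of the same genes, relative to all libraries, the untreated library (0.36) lay below another of its group (0.39). The part of this signal was not tested. At 8 h Trem2 was at 11710.4, 9906 and 12570.5 in PD-1 KO-labelled libraries and 15597, 14749 and 14603 in WT-labelled ones. After 8 h with amyloid-beta it was at 10835.5, 9266 and 10859 in PD-1 KO-labelled libraries and 15760.3, 14482 and 14468 in WT-labelled ones. Every PD-1 KO-labelled library was below every WT-labelled one in both of these conditions.

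The Trem2 difference over all conditions was -0.55 ± 0.07 (adjusted p = 4.49e-08). At 2 h it was -0.73 ± 0.15 in untreated cultures (adjusted p = 0.000371) and -0.75 ± 0.15 in those given amyloid-beta (adjusted p = 0.000183). Cultures given amyloid-beta for 8 h also passed, with -0.53 ± 0.15 (adjusted p = 0.0059). It did not pass at 0 h (-0.32 ± 0.15, adjusted p = 0.138, 95% interval -0.62 to -0.01). At 8 h without amyloid-beta it passed narrowly (-0.40 ± 0.15, adjusted p = 0.0449), and that call was lost in 5 of the 6 fits that left out 1 of its libraries, with adjusted p up to 0.198, and with quantile normalization, TMM factors or no intensity trend. Quantile normalization ended the call at 8 h with amyloid-beta, where the difference was then -0.22 (adjusted p = 0.0937), and the pan-microglia scaling described below ended that at 2 h with amyloid-beta. In order of group means, the 5 PD-1 KO-labelled groups took the 5 lowest places, from 10320.2 at 8 h with amyloid-beta to 11396 at 8 h, and neighbours among them overlapped. The WT-labelled groups followed from 13911.5 at 0 h to 19007 at 2 h with amyloid-beta, again with neighbours that overlapped.

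Tyrobp (chromosome 7, 30413760 to 30417585), the adaptor through which TREM2 signals, followed the same order of labels. Its signal at 0 h was 8334, 8919 and 12212.5 in PD-1 KO-labelled libraries and 12661.5, 10152 and 11076 in WT-labelled ones. The third PD-1 KO-labelled library of that group stood among the WT-labelled values. At 2 h Tyrobp was at 9285, 7659 and 8301 in PD-1 KO-labelled libraries and 12194, 17180 and 15624 in WT-labelled ones. With amyloid-beta for 2 h it was at 7148.5, 7338 and 8453 in PD-1 KO-labelled libraries and 19007, 12836 and 15098 in WT-labelled ones, the widest gap of the 5 conditions. At 8 h the values were 10661, 8214 and 10288 in PD-1 KO-labelled libraries and 13047, 11964 and 11861 in WT-labelled ones. With amyloid-beta for 8 h they were 7541, 7041 and 7023 in PD-1 KO-labelled libraries and 11545, 11669.5 and 11119.8 in WT-labelled ones. The labels did not overlap in any of the 4 conditions after 0 h.

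Tyrobp was lower by label over all conditions (-0.61 ± 0.06, adjusted p = 2.35e-09). Untreated cultures passed at 2 h, with -0.82 ± 0.14 (adjusted p = 5.3e-05). Cultures given amyloid-beta passed at 2 h, with -1.02 ± 0.14 (adjusted p = 1.82e-06), and at 8 h, with -0.67 ± 0.14 (adjusted p = 0.000471). Group means ran from 7202 in PD-1 KO-labelled libraries at 8 h with amyloid-beta to 15647 in WT-labelled ones at 2 h with amyloid-beta, and the WT-labelled groups at 8 h were the one neighbouring pair without overlap. Neither 0 h (-0.22 ± 0.14, 95% interval -0.51 to 0.08) nor 8 h without amyloid-beta (-0.35 ± 0.14, adjusted p = 0.0742) passed. The third PD-1 KO-labelled library at 0 h was the highest of its group for 8 of the 10 genes, all except Syk and Gpnmb. Its summed signal of the same 14 genes was 112279, against 74539 and 87177 in the other libraries of that group.

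Syk (chromosome 13, 52583173 to 52648792), the kinase that TYROBP and Dectin-1 recruit, had a similar range under both labels. It ran from 2817 to 4024 in PD-1 KO-labelled libraries and from 2360 to 4473 in WT-labelled ones. The difference over all conditions was -0.04 ± 0.05 (adjusted p = 0.456, 95% interval -0.14 to 0.05), and none of the 5 conditions passed, with differences of -0.15 to 0.17. On the pan-microglia scaling described below, Syk at 2 h with amyloid-beta turned to 0.52 and passed (adjusted p = 0.00389). The median of all tested genes there was then 0.68, above that of Syk, and 97.8% of all calls were higher. The libraries did not overlap by label at 0 h, where Syk was at 3138, 3265 and 3176 in PD-1 KO-labelled libraries and 2359.9, 3135 and 3100.3 in WT-labelled ones, yet the adjusted p was 0.296. The 4 highest group means were those at 8 h, from 3554 in the PD-1 KO-labelled group without amyloid-beta to 4171 in the WT-labelled group with it, and neighbours in the order overlapped.

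Clec7a (chromosome 6, 129461591 to 129472779, listed by GENCODE as a polymorphic pseudogene) encodes Dectin-1, a beta-glucan receptor that also signals through SYK. At 0 h it was at 2117, 2246 and 3409 in PD-1 KO-labelled libraries and 4656, 4169 and 4003 in WT-labelled ones. At 2 h it was at 3514, 2888 and 3149.7 in PD-1 KO-labelled libraries and 5846, 6957 and 6688 in WT-labelled ones. With amyloid-beta for 2 h the values were 2526, 2650.2 and 2972 in PD-1 KO-labelled libraries and 5410.4, 5899 and 6241 in WT-labelled ones. The PD-1 KO-labelled libraries were all lower at each of these times, and no library crossed over. At 8 h Clec7a stood at 6479, 4827 and 4729.9 in PD-1 KO-labelled libraries and 6858, 6758 and 6902 in WT-labelled ones. With amyloid-beta for 8 h it stood at 4764, 4466 and 4481 in PD-1 KO-labelled libraries and 6924, 7551 and 6916 in WT-labelled ones. The labels did not overlap in any condition, and at 8 h 1 PD-1 KO-labelled library came close to the WT-labelled values.

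Clec7a was lower by label over all conditions (-0.78 ± 0.06, adjusted p = 2.41e-12) and in each of the 5. The difference was -0.75 ± 0.13 at 0 h (adjusted p = 8.93e-05). At 2 h it was -1.03 ± 0.13 in untreated cultures (adjusted p = 5.83e-07) and -1.11 ± 0.13 in those given amyloid-beta (adjusted p = 1.04e-07). At 8 h with amyloid-beta it was -0.64 ± 0.13 (adjusted p = 0.000251). Without amyloid-beta at 8 h it was -0.37 ± 0.13 (adjusted p = 0.0332), a call lost in 5 of the 6 fits that left out 1 library, with quantile normalization and with no intensity trend. The order of group means opened with 2591 in PD-1 KO-labelled libraries at 0 h, whose range overlapped that of the PD-1 KO-labelled 2 h groups, and the WT-labelled 0 h group (4276) lay below both PD-1 KO-labelled groups at 8 h.

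Itgax (chromosome 7, 128129547 to 128150657), the integrin subunit CD11c, had low signal and wide spread. At 0 h it was at 81.0, 74.0 and 101 in PD-1 KO-labelled libraries and 45.9, 39.0 and 52.9 in WT-labelled ones. At 8 h it was at 117, 80.6 and 44.8 in PD-1 KO-labelled libraries and 32.7, 49.2 and 57.7 in WT-labelled ones, so 1 library of that group fell among the WT-labelled values. Over all 15 libraries each, it ran from 44.8 to 117 in PD-1 KO-labelled ones and from 32.7 to 105 in WT-labelled ones. The difference was 0.53 ± 0.14 over all conditions (adjusted p = 0.00173), but 0.04 with quantile normalization (adjusted p = 0.835). It passed at 0 h alone (0.88 ± 0.31, adjusted p = 0.0429), and in none of the 6 fits that left out 1 of those libraries, nor with quantile normalization, pan-microglia scaling, no intensity trend or voom. Neighbours in the order of its group means all overlapped, from 45.9 in WT-labelled libraries to 85.2 in PD-1 KO-labelled libraries, both at 0 h.

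**Figure D2:**
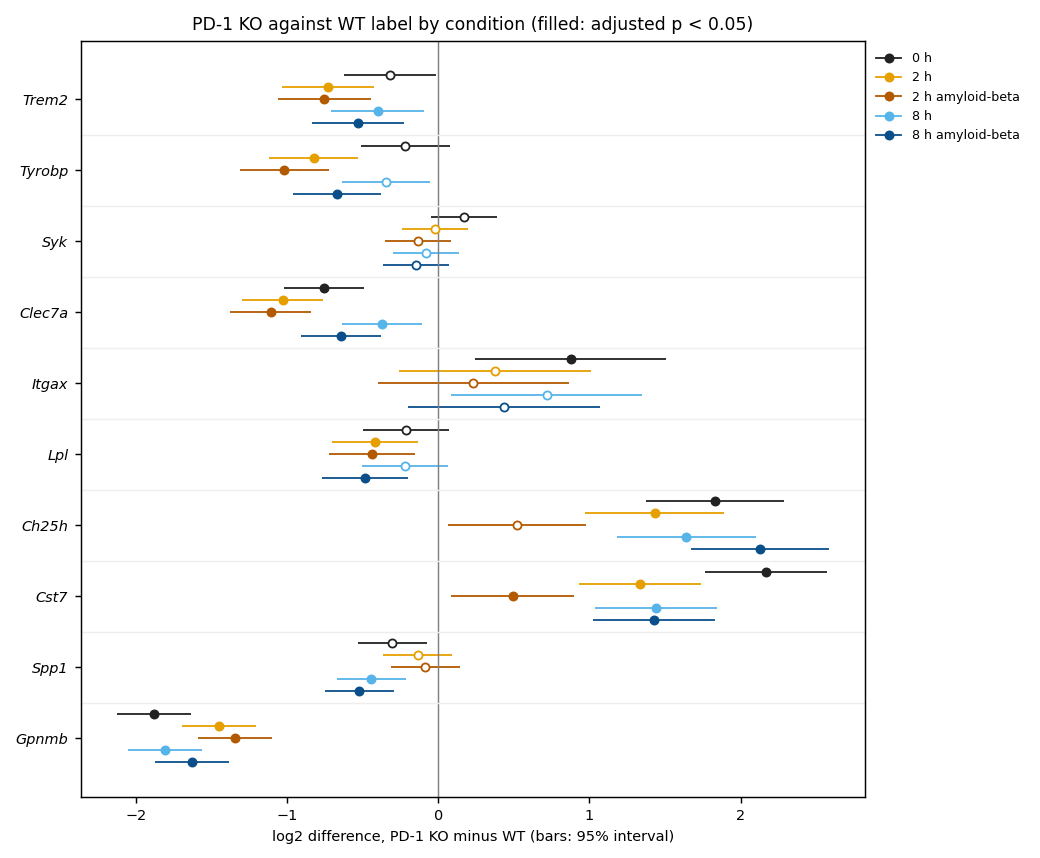
Log2 difference (PD-1 KO minus WT label) of each gene in each of the 5 conditions, with points for the limma estimate, bars for its 95% interval and filled points where the adjusted p was under 0.05. Gpnmb and Clec7a lie left of 0 and filled in every condition, Cst7 lies right of 0 and filled in every condition, and Syk is open throughout.

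Lpl (chromosome 8, 68880491 to 68907448) encodes lipoprotein lipase, which releases fatty acids from triglycerides. Its signal ran from 69750 to 106918 in PD-1 KO-labelled libraries and from 88594 to 118448 in WT-labelled ones, with medians of 86034 and 107963. At 8 h with amyloid-beta, where the gap was widest, it was at 86329.9, 73728 and 80194 in PD-1 KO-labelled libraries and 106117, 115248 and 113625 in WT-labelled ones. The labels overlapped at 0 h and not in the 4 later conditions. The difference was -0.35 ± 0.06 over all conditions (adjusted p = 1.58e-05) with the authors' scaling and 0.09 with quantile normalization (adjusted p = 0.0604), so its sign depended on the scaling. With the authors' scaling it passed at 2 h (-0.42 ± 0.14), at 2 h with amyloid-beta (-0.44 ± 0.14) and at 8 h with amyloid-beta (-0.48 ± 0.14), with adjusted p of 0.0207, 0.0127 and 0.00746, and each of these turned positive with quantile normalization. The calls at 2 h, without and with amyloid-beta, were each lost in 3 of the 6 fits that left out 1 library, on the pan-microglia scaling and with only the groups compared. At 0 h it was -0.21 (95% interval -0.50 to 0.07) and at 8 h -0.22 (95% interval -0.50 to 0.07). Group means ran from 73744 in PD-1 KO-labelled libraries at 2 h with amyloid-beta to 111697 in WT-labelled ones at 2 h, with overlap between all neighbours.

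Ch25h (chromosome 19, 34473778 to 34475164), the enzyme that turns cholesterol into 25-hydroxycholesterol, went the other way. At 0 h it was at 76.2, 99.6 and 102 in PD-1 KO-labelled libraries and 30.1, 22.6 and 23.1 in WT-labelled ones. At 2 h it was at 121, 152 and 133 in PD-1 KO-labelled libraries and 45.4, 58.1 and 45.3 in WT-labelled ones. With amyloid-beta for 2 h the values were 97.6, 82.3 and 82.0 in PD-1 KO-labelled libraries and 55.6, 55.7 and 71.0 in WT-labelled ones. That was the narrowest gap of the 5 conditions, still without overlap. At 8 h Ch25h stood at 139.8, 132 and 139.9 in PD-1 KO-labelled libraries and 50.2, 53.4 and 30.1 in WT-labelled ones. With amyloid-beta for 8 h it stood at 113, 100.4 and 99.7 in PD-1 KO-labelled libraries and 35.0, 17.6 and 19.8 in WT-labelled ones. The lowest PD-1 KO-labelled value, 76.2, was above the highest WT-labelled value, 71.0.

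The Ch25h difference was 1.51 ± 0.10 over all conditions (adjusted p = 2.01e-13). It was largest at 8 h with amyloid-beta (2.13 ± 0.22, adjusted p = 1.48e-08), followed by 0 h (1.83 ± 0.22), 8 h (1.64 ± 0.22) and 2 h (1.43 ± 0.22), all past the test. At 2 h with amyloid-beta it was 0.52 ± 0.22 and missed the threshold (adjusted p = 0.0655). In order of means, the WT-labelled groups took the 5 lowest places, from 24.1 at 8 h with amyloid-beta to 60.7 at 2 h with amyloid-beta, with overlap between neighbours. The PD-1 KO-labelled groups ran from 87.3 at 2 h with amyloid-beta to 137 at 8 h, and the pair of untreated groups at 2 h and 8 h did not overlap with the group below them.

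Cst7 (chromosome 2, 150570415 to 150578944) encodes cystatin F, an inhibitor of lysosomal cysteine proteases. At 0 h it was at 134, 182 and 300.5 in PD-1 KO-labelled libraries and 41.9, 41.0 and 44.6 in WT-labelled ones. At 2 h it was at 210.5, 186 and 164 in PD-1 KO-labelled libraries and 68.6, 83.1 and 68.5 in WT-labelled ones. With amyloid-beta for 2 h the values were 143.5, 137 and 133 in PD-1 KO-labelled libraries and 107, 94.2 and 91.8 in WT-labelled ones. The PD-1 KO-labelled libraries spread most at 0 h, and the gap narrowed most at 2 h with amyloid-beta. At 8 h Cst7 stood at 289, 202 and 194 in PD-1 KO-labelled libraries and 89.5, 82.7 and 75.2 in WT-labelled ones. With amyloid-beta for 8 h it stood at 156, 145 and 139 in PD-1 KO-labelled libraries and 57.3, 60.3 and 45.1 in WT-labelled ones. The lowest PD-1 KO-labelled value over all conditions, 133, was above the highest WT-labelled value, 107.

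Cst7 was higher by label over all conditions (1.37 ± 0.09, adjusted p = 1.17e-13). It was 2.17 ± 0.20 at 0 h (adjusted p = 5.69e-09), 1.33 ± 0.20 at 2 h, 1.44 ± 0.20 at 8 h and 1.43 ± 0.20 at 8 h with amyloid-beta (adjusted p = 1.39e-06). At 2 h with amyloid-beta it was 0.49 ± 0.20 (adjusted p = 0.0488), and that call was lost in all 6 fits that left out 1 of its libraries, and with a pseudocount of 10, quantile normalization, TMM factors, voom or only the groups compared. Among WT-labelled groups the means ran from 42.5 at 0 h to 97.6 at 2 h with amyloid-beta, and all neighbours there were apart except the untreated groups at 2 h and 8 h. Among PD-1 KO-labelled groups they ran from 138 at 2 h with amyloid-beta to 228 at 8 h.

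Spp1 (chromosome 5, 104435118 to 104441050) encodes osteopontin, a secreted ligand of CD44 and several integrins. Its signal ran from 36539 to 48894 in PD-1 KO-labelled libraries and from 44129 to 65255 in WT-labelled ones, with medians of 44153 and 53467. At 8 h with amyloid-beta it was at 46318, 40282 and 42493 in PD-1 KO-labelled libraries and 60106, 65255 and 59737 in WT-labelled ones, and these did not overlap. The difference was -0.30 ± 0.05 over all conditions (adjusted p = 8.62e-06) with the authors' scaling, and 0.18 with quantile normalization (adjusted p = 0.000174), a call in the opposite direction. With the authors' scaling it passed at 8 h in untreated cultures (-0.44 ± 0.11, adjusted p = 0.00341) and in those given amyloid-beta (-0.52 ± 0.11, adjusted p = 0.000476), and both were positive with quantile normalization. The other differences were -0.30 at 0 h (95% interval -0.53 to -0.08), -0.14 at 2 h (95% interval -0.36 to 0.09) and -0.09 at 2 h with amyloid-beta (95% interval -0.32 to 0.14). In order, the PD-1 KO-labelled groups took the 5 lowest means, from 41148 at 8 h to 46107 at 0 h, and the highest of them overlapped with the WT-labelled groups at 2 h.

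Gpnmb (chromosome 6, 49036546 to 49070929), a membrane glycoprotein of lysosomes and melanosomes, had the largest label difference of the 10 genes over all conditions with the authors' scaling, whereas Ch25h had it on the pan-microglia scaling (1.70, beside -1.43 for Gpnmb). At 0 h it was at 18097, 18053 and 15718 in PD-1 KO-labelled libraries and 57245, 63857 and 70394 in WT-labelled ones. At 2 h it was at 16184, 16696 and 18458 in PD-1 KO-labelled libraries and 45922, 45522.5 and 48411 in WT-labelled ones. With amyloid-beta for 2 h the values were 18340, 20173.5 and 23649 in PD-1 KO-labelled libraries and 58565, 48197 and 50913.5 in WT-labelled ones. In each of these conditions every PD-1 KO-labelled library lay below every WT-labelled one. At 8 h Gpnmb stood at 16730.1, 16014 and 17465 in PD-1 KO-labelled libraries and 52181, 55861 and 68299 in WT-labelled ones. With amyloid-beta for 8 h it stood at 23016, 19094 and 21772 in PD-1 KO-labelled libraries and 64463, 66774 and 66049.6 in WT-labelled ones. Across conditions the highest PD-1 KO-labelled value, 23649, was below the lowest WT-labelled value, 45522.5.

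The Gpnmb difference was -1.62 ± 0.05 over all conditions (adjusted p = 1.42e-19). It was -1.88 ± 0.12 at 0 h, -1.80 ± 0.12 at 8 h, -1.63 ± 0.12 at 8 h with amyloid-beta, -1.45 ± 0.12 at 2 h and -1.35 ± 0.12 at 2 h with amyloid-beta, with adjusted p of 1.25e-09 or less in each. PD-1 KO-labelled means ran from 16736.5 at 8 h to 21294 at 8 h with amyloid-beta, and WT-labelled means from 46618 at 2 h to 65762 at 8 h with amyloid-beta. Within the WT-labelled order every neighbouring pair overlapped. Thus 1 of the 10 genes lay wholly below by label over all conditions, beside 1.36% of all tested genes, and 2 lay wholly above, beside 7.64%.

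By condition, 5 of the 10 genes passed at 0 h, beside 20.7% of all tested genes. Of these 3 were higher, beside 13.8%, and 2 lower, beside 6.88%. At 2 h 7 passed (beside 32.2%), 2 of them higher (18.8%) and 5 lower (13.4%). At 2 h with amyloid-beta 6 passed (38.9%), 1 higher (22.2%) and 5 lower (16.7%). At 8 h 6 passed (27%), 2 higher (18%) and 4 lower (9.01%). After 8 h of amyloid-beta 8 passed (33.7%), 2 higher (22%) and 6 lower (11.7%). The genes lower at 0 h were Clec7a and Gpnmb, joined at 2 h by Trem2, Tyrobp and Lpl.

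The scaling between libraries moved the sizes. With quantile normalization the median of all tested genes moved by -0.09 on the log2 scale, and the higher share of all calls was 34.2%, beside 51.0% with the authors' scaling. The differences over all conditions were then -1.23 for Gpnmb, -0.61 for Clec7a, -0.36 for Tyrobp, -0.25 for Trem2, 1.06 for Ch25h and 1.06 for Cst7, all past the test. When the libraries were set equal on 14 pan-microglia and macrophage genes, the median of all genes moved by 0.19 and 85.2% of calls were higher. On that scale Trem2 was at -0.36, Tyrobp at -0.43 and Clec7a at -0.59, again past the test, and Spp1 at -0.11 was not. The median of the 10 genes itself was 0.05 with quantile normalization. With TMM factors and with voom on recovered reads, 9 of the 10 passed, and the share of all tested genes that passed is not given for these.

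**Figure D3:**
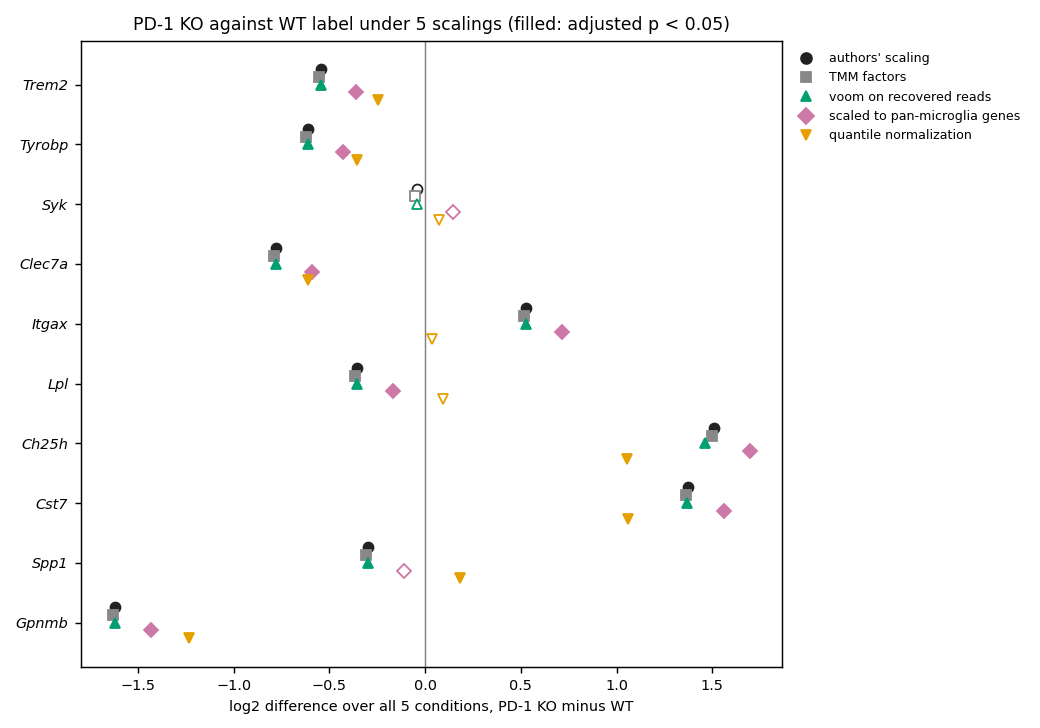
Log2 difference over all 5 conditions (PD-1 KO minus WT label) of each gene under 5 scalings or weightings, with filled symbols where the adjusted p was under 0.05. Gpnmb, Clec7a, Tyrobp and Trem2 stay left of 0 and Ch25h and Cst7 right of 0 under all 5, while Lpl and Spp1 cross 0 and Itgax falls to 0.04 with quantile normalization.

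Markers of other cells moved with the label. Beside the counts that follow, 30.3% of all tested genes were higher and 29.1% lower over all conditions. All 11 astrocyte markers in the table were higher in PD-1 KO-labelled libraries, with a median log2 difference of 2.52. Their summed signal was 13927 to 31449 in PD-1 KO-labelled libraries and 1898 to 5565 in WT-labelled ones. Gfap, the astrocyte filament protein, averaged 7133 ± 2538 in PD-1 KO-labelled libraries and 451 ± 193 in WT-labelled ones (SD, n = 15 each). Among 11 markers of the oligodendrocyte lineage, 7 were called higher and 3 lower. Their summed signal was 6541 to 10829 in PD-1 KO-labelled libraries and 2494 to 5688 in WT-labelled ones. The pan-microglia and macrophage list summed to 64062 to 112279 in PD-1 KO-labelled libraries and 75738 to 127155 in WT-labelled ones, with 1 member higher and 8 lower of 14. Of 9 neuron markers 4 were higher and 5 lower, of 8 fibroblast and vascular markers 5 were higher and 1 lower, of 4 border macrophage and monocyte markers 2 were higher and 1 lower, and of 2 dendritic cell markers 0 passed. The part of these shifts in the differences of the 10 genes was not tested. In bulk RNA, fewer cells of a type and less RNA per cell cannot be told apart. Of 10 markers of neutrophils, lymphocytes and red cells, 0 were listed in the table, and of 10 markers of border macrophages and monocytes 4 were.

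Amyloid-beta medium was set against untreated cultures within each label and time, and 1 gene passed in 1 of the 4 comparisons. In PD-1 KO-labelled libraries 0 of 10 passed at 2 h (beside 0% of all tested genes) and 0 at 8 h (0.0583%). At each time 3 of them had an unadjusted p under 0.05, beside 615 of 13722 tested genes at 2 h and 1036 at 8 h. In WT-labelled libraries 0 passed at 2 h (0%), where 1 had an unadjusted p under 0.05, beside 681 of 13722 tested genes. At 8 h 1 passed there (2.18%). That gene was Ch25h, which was lower, beside 2.05% of all tested genes that were lower. At 8 h it was at 35.0, 17.6 and 19.8 in WT-labelled libraries with amyloid-beta and 50.2, 53.4 and 30.1 without it, and 1 value of each group overlapped. The difference, amyloid-beta minus untreated, was -0.88 ± 0.22 (adjusted p = 0.0336), and it was lost in 4 of the 6 fits that left out 1 library, with a pseudocount of 10, with quantile normalization, on the pan-microglia scaling and with only the groups compared. Beside it, the summed astrocyte markers were 1898 to 2028 with amyloid-beta and 2607 to 4382 without it, and their part was not tested.

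Other members had differences whose intervals bound the size of an effect. Trem2 differed by 0.01 in PD-1 KO-labelled libraries at 2 h (95% interval -0.29 to 0.32) and by -0.14 at 8 h (-0.44 to 0.17). In WT-labelled libraries it differed by 0.04 at 2 h (-0.27 to 0.34) and -0.01 at 8 h (-0.31 to 0.30). Cst7 at 8 h was at 156, 145 and 139 with amyloid-beta and 289, 202 and 194 without it in PD-1 KO-labelled libraries, a difference of -0.62 ± 0.20 (adjusted p = 0.308). In WT-labelled libraries at 8 h it was at 57.3, 60.3 and 45.1 with amyloid-beta and 89.5, 82.7 and 75.2 without it, a difference of -0.60 ± 0.20 (adjusted p = 0.116). Neither pair of groups overlapped, and neither passed. Of all tested genes, 15.2% did not overlap in this comparison in PD-1 KO-labelled libraries and 23.1% in WT-labelled ones. Tyrobp at 8 h in PD-1 KO-labelled libraries differed by -0.42 ± 0.14 (adjusted p = 0.355) and Gpnmb there by 0.34 ± 0.12 (adjusted p = 0.391), each without overlap between the groups. At 8 h, Ch25h in PD-1 KO-labelled libraries and Tyrobp and Clec7a in WT-labelled ones also did not overlap and did not pass.

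The amyloid-beta effect did not pass as different between the labels for any of the 10 genes, at 2 h (beside 0.051% of all tested genes) or at 8 h (0%). Beside 663 of 13722 tested genes, 2 of the 10 had an unadjusted p under 0.05 at 2 h. These were Ch25h, with an effect of -0.62 ± 0.22 in PD-1 KO-labelled libraries and 0.29 ± 0.22 in WT-labelled ones (difference -0.91, adjusted p = 0.783), and Cst7, with -0.43 ± 0.20 in PD-1 KO-labelled and 0.41 ± 0.20 in WT-labelled libraries (difference -0.84, adjusted p = 0.708). At 8 h 0 of the 10 had such a p, beside 810 of all tested genes.

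**Figure D4:**
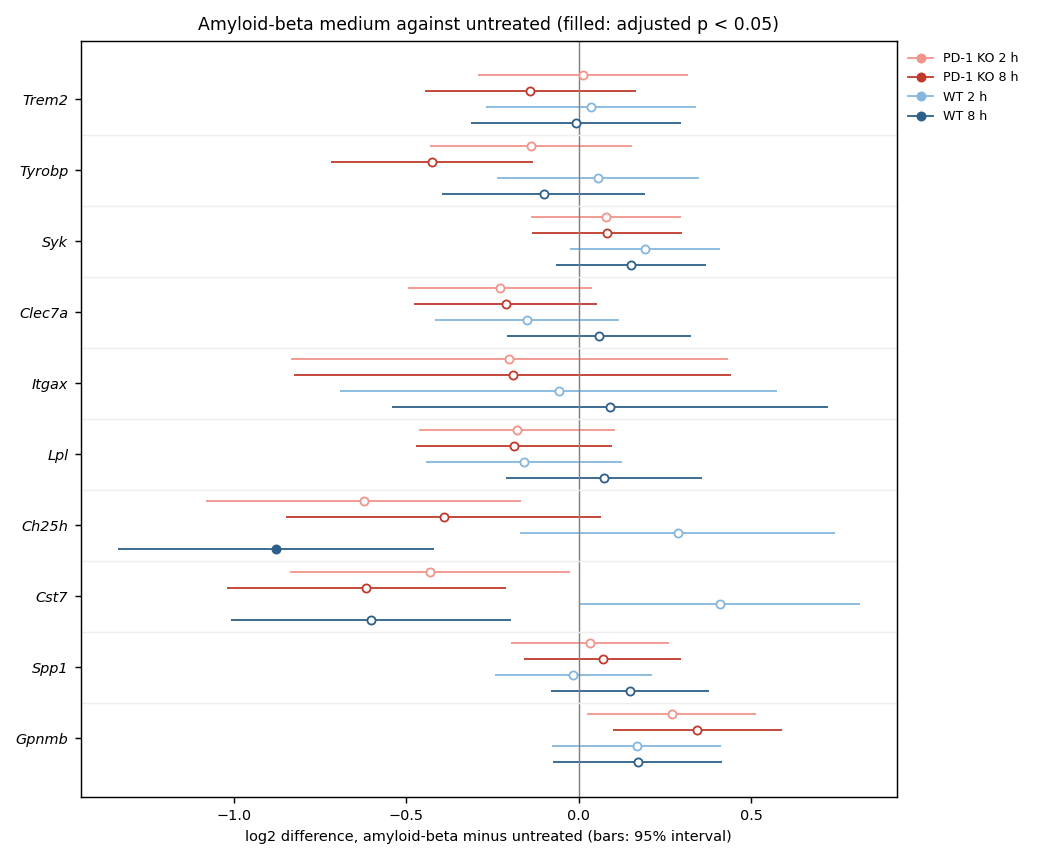
Log2 difference (amyloid-beta medium minus untreated) of each gene within each label and time, with points for the limma estimate, bars for the 95% interval and a filled point where the adjusted p was under 0.05. Only Ch25h in WT-labelled libraries at 8 h is filled, at -0.88.

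Time in culture without amyloid-beta was followed at 0 h, 2 h and 8 h. The numbers in the sample titles run on from 0 h to 2 h and break before 8 h, and what the break stands for is not given. A difference between 8 h and 0 h therefore cannot be told apart from one across that break. Clec7a averaged 2591 ± 712, 3184 ± 314.5 and 5345 ± 983 at these times in PD-1 KO-labelled libraries, and 4276 ± 339, 6497 ± 579 and 6839 ± 73.8 in WT-labelled ones (SD, n = 3 each). At 8 h against 0 h it was higher under both labels, by 1.06 ± 0.13 in PD-1 KO-labelled libraries (adjusted p = 7.29e-06) and by 0.68 ± 0.13 in WT-labelled ones (adjusted p = 0.00136). It was the 1 gene of the 10 that passed in PD-1 KO-labelled libraries at 8 h (beside 3.29% of all tested genes, with 1.5% higher and 1.79% lower). At 2 h 0 passed there (0.634%, with 0.357% higher and 0.277% lower), and 2 had an unadjusted p under 0.05, beside 1195 of 13722 tested genes.

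In WT-labelled libraries 4 of the 10 passed at 2 h against 0 h (beside 4.75% of all tested genes), 3 higher (2.59%) and 1 lower (2.16%). At 8 h 4 passed (6.05%), all 4 higher, beside 3% of all tested genes that were higher and 3.05% lower. Ch25h averaged 25.3 ± 4.22, 49.6 ± 7.37 and 44.6 ± 12.7 at 0 h, 2 h and 8 h, higher by 0.95 ± 0.22 at 2 h (adjusted p = 0.0113) and 0.76 ± 0.22 at 8 h (adjusted p = 0.0381). Cst7 averaged 42.5 ± 1.88, 73.4 ± 8.43 and 82.5 ± 7.15, higher by 0.77 ± 0.20 at 2 h (adjusted p = 0.0215) and 0.94 ± 0.20 at 8 h (adjusted p = 0.00371). Clec7a was higher at 2 h by 0.60 ± 0.13 (adjusted p = 0.00568). Gpnmb was lower at 2 h, with a difference of -0.45 ± 0.12 (adjusted p = 0.0267), and at 8 h its difference was -0.12 (95% interval -0.37 to 0.12). Syk was higher at 8 h, by 0.40 ± 0.11 (adjusted p = 0.0216), a call lost without 1 WT-labelled library at 0 h (0.27) or 1 at 8 h (0.27). Leaving out 1 library in turn also ended the calls of Ch25h in 3 of 6 fits at 2 h and 4 of 6 at 8 h, of Cst7 in 3 of 6 at 2 h and of Gpnmb in 4 of 6. With only the groups compared 0 of the 10 passed at 2 h, and the pan-microglia scaling ended the 2 h calls of Clec7a, Ch25h and Cst7. That scaling left 1.017% of all calls higher at 2 h and 6.27% at 8 h, beside 54.6% and 49.5% with the authors' scaling. At 8 h the calls of Syk and Ch25h ended under both of these settings, and those of Ch25h and Cst7 with voom. Beside these changes, the summed pan-microglia and macrophage signal in WT-labelled libraries was 75738 to 87123 at 0 h, 105743 to 120554 at 2 h and 93572 to 100095 at 8 h. The summed fibroblast and vascular markers were 959 to 1418, 487 to 706 and 376 to 503 at these times, and the part of both was not tested. Trem2 and Tyrobp at 2 h were at 0.40 (adjusted p = 0.127) and 0.40 (adjusted p = 0.106) and passed once the WT-labelled 2 h library of lowest Trem2 was left out (adjusted p = 0.0305 for each).

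The change with time did not pass as different between the labels for any of the 10 genes, at 2 h (beside 0.736% of all tested genes) or 8 h (0.27%). At 2 h the unadjusted p was under 0.05 for 3 of them, beside 1807 of 13722 tested genes. The 2 h minus 0 h difference of Tyrobp was -0.21 ± 0.14 in PD-1 KO-labelled and 0.40 ± 0.14 in WT-labelled libraries (adjusted p between the labels 0.157). That of Cst7 was -0.07 ± 0.20 in PD-1 KO-labelled and 0.77 ± 0.20 in WT-labelled libraries (adjusted p = 0.16). That of Gpnmb was -0.01 ± 0.12 in PD-1 KO-labelled and -0.45 ± 0.12 in WT-labelled libraries (adjusted p = 0.247). At 8 h 2 had such a p, Clec7a and Cst7, beside 1427 of all tested genes. Clec7a had the larger estimate in PD-1 KO-labelled libraries (difference 0.38, adjusted p = 0.47).

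Genes that act with these 10 were counted in lists over the same libraries, and some genes stand in more than 1 list. Beside the counts by label, 30.3% of all tested genes were higher and 29.1% lower over all conditions. Of 20 genes of TREM2 signalling and shedding in the table, 1 was higher and 15 were lower in PD-1 KO-labelled libraries over all conditions, with a median of -0.22 beside -0.02 for all tested genes. The adaptor Grb2 averaged 2343 ± 181 in PD-1 KO-labelled libraries and 3267 ± 188 in WT-labelled ones (SD, n = 15 each), a difference of -0.48 ± 0.03. Hcst, the DAP10 adaptor that also pairs with TREM2, differed by -0.44 ± 0.12. Adam17, a protease that sheds TREM2 from the surface, was the 1 higher gene (0.24 ± 0.04). On the pan-microglia scaling 2 of the 20 were higher and 5 lower, with a median of -0.04.

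Of 33 other DAM genes 10 were higher (beside 30.3% of all tested genes) and 17 lower (29.1%) by label, with a median of -0.19. Lgals3bp, a secreted galectin-binding glycoprotein, averaged 2328 ± 571 in PD-1 KO-labelled libraries and 4490 ± 1329 in WT-labelled ones. Fabp5, a fatty acid carrier, averaged 7057 ± 727 in PD-1 KO-labelled libraries and 12774 ± 1703 in WT-labelled ones. Csf1, a growth factor for microglia, was higher, at 977 ± 147 in PD-1 KO-labelled libraries and 347 ± 95.3 in WT-labelled ones (1.53 ± 0.07), as was the protease inhibitor Serpine2 (1.48 ± 0.08). With quantile normalization 13 of these 33 were higher and 15 lower, and on the pan-microglia scaling 15 were higher and 16 lower, with a median of 0.00.

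Of 19 genes of lipid handling 4 were higher (beside 30.3% of all tested genes) and 11 lower (29.1%), with a median of -0.24. These counts were 5 and 7 on the pan-microglia scaling, with a median of -0.05. Cyp7b1, which hydroxylates 25-hydroxycholesterol, the product of CH25H, was at 16.02 to 39.8 in PD-1 KO-labelled libraries and at 1 to 12.8 in WT-labelled ones, where 1 library lay at the floor. The lipoprotein receptor Vldlr was higher (0.83 ± 0.10), and the fatty acid carrier Fabp4 (-1.60 ± 0.07) was lower. Of 19 transcription factors linked to the DAM programme 2 were higher (30.3%) and 15 lower (29.1%), with a median of -0.25. Only 7 were lower on the pan-microglia scaling, beside 2 higher, with a median of -0.06. Egr2 (0.71 ± 0.08) and Cebpb (0.30 ± 0.07) were the higher ones, and Cebpa (-0.70 ± 0.06) and Pparg (-0.61 ± 0.07) fell furthest.

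Of 13 partners of osteopontin, CD11c, Dectin-1 and GPNMB 4 were higher (beside 30.3% of all tested genes) and 5 lower (29.1%), with a median of 0.01. This balance turned on the pan-microglia scaling, with 6 higher, 2 lower and a median of 0.20. Itgam, the integrin subunit CD11b (0.78 ± 0.07), and Sdc4, a syndecan that GPNMB binds (0.70 ± 0.06), were higher. The integrin subunit Itga4 (-0.40 ± 0.11) and the Fc receptor chain Fcer1g (-0.39 ± 0.05) were lower. Of 13 homeostatic microglia genes 4 were higher (30.3%) and 6 lower (29.1%), with a median of -0.09. Here too it turned on that scaling, with 6 higher, 5 lower and a median of 0.10. Sall1 and Cx3cr1, both at 0.71 ± 0.08, were higher, and Olfml3 (-4.18 ± 0.10) and Fcrls (-1.46 ± 0.08) were lower.

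**Figure D5:**
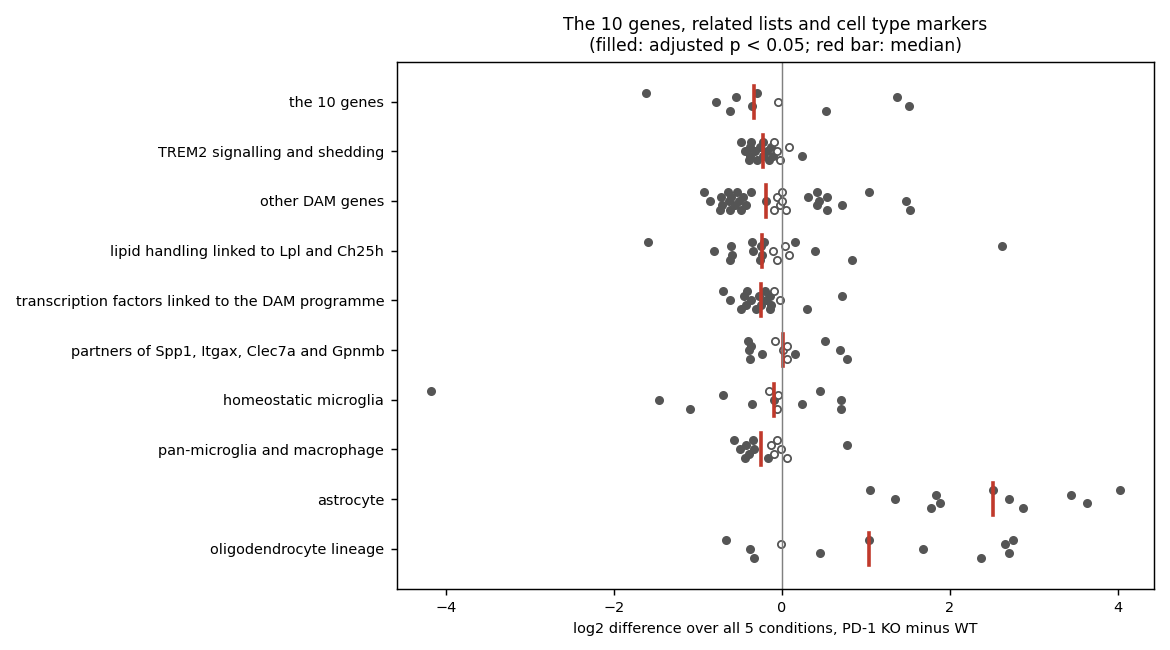
Log2 difference over all 5 conditions (PD-1 KO minus WT label) of each gene in the 10 genes, the related lists and the cell type marker lists, filled where the adjusted p was under 0.05, with a red bar at each list's median. The median is -0.33 for the 10 genes and -0.22 for TREM2 signalling and shedding, and all 11 astrocyte markers lie right of 0 with a median of 2.52.

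The same lists were counted at 8 h against 0 h, where 1.5% of all tested genes were higher and 1.79% lower in PD-1 KO-labelled libraries, and 3% were higher and 3.05% lower in WT-labelled ones. Of the 20 signalling genes 2 were higher and 2 lower in PD-1 KO-labelled libraries, and 4 were higher and 0 lower in WT-labelled ones. On the pan-microglia scaling, which moved the median of all genes by -0.26 in WT-labelled libraries, 1 was higher and 3 lower there. Lcp2, the adaptor SLP-76, was higher under both labels, by 0.67 ± 0.09 in PD-1 KO-labelled libraries and 0.99 ± 0.09 in WT-labelled ones. Adam17 (0.38 ± 0.10) was also higher in PD-1 KO-labelled libraries, where Vav3 (-0.64 ± 0.11) and Inpp5d (-0.44 ± 0.10) were lower. In WT-labelled libraries Vav2 was also higher (0.58 ± 0.11). Of the 33 other DAM genes 3 were higher and 2 lower in PD-1 KO-labelled libraries, where the chemokine Ccl3 was higher by 1.23 ± 0.15. Ccl4 was also higher there (0.99 ± 0.23), and Rab7b (-0.52 ± 0.11) and Cxcr4 (-0.39 ± 0.10) were lower. In WT-labelled libraries 4 of the 33 were higher, among them Cd52 (0.97 ± 0.17) and the receptor kinase Axl (0.67 ± 0.12). The 2 lower ones there were Mamdc2 (-0.82 ± 0.24) and Cadm1 (-0.63 ± 0.10). The balance in WT-labelled libraries turned on the pan-microglia scaling, with 1 of the 33 higher, 13 lower and a median of -0.25.

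For each of the 10 genes, the genes whose 10 group means were most like its own were named as a description, since all genes share the same libraries and labels. For Trem2 these were Dnase2a, Gga1 and Apoe, with Pearson r of 0.989, 0.988 and 0.985 over the 10 group means. For Tyrobp they were Klc4, Lgmn and Ostf1 (0.995, 0.993 and 0.988), and for Gpnmb they were Psap, Mcoln1 and Ttyh2 (0.999, 0.993 and 0.989). Cst7 was most like Clec4a1, Specc1l and Cfp (0.970, 0.964 and 0.961), and Ch25h most like Serpine2, Efemp2 and Carhsp1 (0.967, 0.950 and 0.947). Clec7a was nearest to Fam134c, Slc29a1 and Slc15a4 (0.974, 0.956 and 0.955), Itgax to Ddah2, Itgam and Abcb4 (0.975, 0.953 and 0.942), and Syk to Mcfd2, Map3k3 and Smim3 (0.968, 0.963 and 0.955). Lpl was nearest to Snx8, Chmp1b and Rab1a (0.975, 0.971 and 0.966), and Spp1 to Slc40a1, Dennd4c and Elmod2 (0.975, 0.973 and 0.966).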

How the data were processed

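RNA was sequenced from 30 libraries of mouse microglia in 10 groups of 3. The deposited values are size-factor-normalised gene counts, a signal with a floor of 1, and per the submitters' processing notes HISAT 0.1.5, Partek 6.6, R 3.0.2 and DESeq2 were used with mm10, with no role given. Each library's values were whole multiples of one step (100% within 0.05 of a read, up to 5000 reads), which gave its depth. The planned edgeR fit was not run, because the floor hides up to 4 reads in 12 libraries.

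From the deposited signal, log2(value + 1) was fitted with limma 3.58.1 (R 4.3.3, trend on) on 10 group means, keeping genes at 10 or more in at least 3 libraries (13722 of 13788). Fold changes on that scale understate low genes. P-values were adjusted by Benjamini-Hochberg within each comparison (threshold 0.05). Every replicate pair differed by more than sampling noise, with chi-square per gene from 2.09 to 45.1. Promoters were read with Python 3.11.15, and intervals cover the spread between libraries.

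The members and lists were chosen with earlier results of these data known. All members were described. From the astrocyte markers Gfap was named. For the label difference, genes were also named from the related lists and the homeostatic list. These were the genes furthest from 0 among those past the threshold, at most 2 in each direction of each list. For 8 h against 0 h the same rule was used for the signalling and other DAM genes only. A gene that this rule names is not reported here. Likeness was Pearson's r over the 10 group means of log2(value + 1), among tested genes above the median level.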

Additional observations from a re-analysis of the deposited data

How the results depend on the processing

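Of the single-gene values recomputed without 1 library, 1504 kept their direction and call, 48 lost a call and 8 gained one. Under the other settings 1714 kept both, 39 lost a call, 22 gained one and 15 reversed. Sign changes of values that never passed count as kept. The cause of each change was not tested.

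On the pan-microglia scaling, 8 of the 10 genes passed between the labels at 0 h, 3 for amyloid-beta at 8 h in PD-1 KO-labelled libraries, 0 in WT-labelled ones, 1 for 2 h against 0 h in PD-1 KO-labelled libraries and 2 for 8 h against 0 h in WT-labelled ones. The difference in time course between the labels then passed for 4 genes at 2 h and 1 at 8 h. That scaling moved the median of all tested genes by -0.28 between the labels at 0 h, where 22.9% of all calls were higher. For amyloid-beta at 8 h in PD-1 KO-labelled libraries it moved by 0.42, with 99.5% of calls higher. For the time course difference it moved by 0.65 at 2 h (99.7%) and 0.28 at 8 h (85.7%). How far these counts follow that shift was not tested. With quantile normalization 3 passed between the labels at 8 h, and 0 for amyloid-beta in WT-labelled libraries at 8 h, which was also 0 with a pseudocount of 10. With only the groups compared, 0 passed for amyloid-beta in WT-labelled libraries at 8 h, 0 for 2 h against 0 h there and 2 for 8 h against 0 h. With voom on recovered reads, added after seeing the data, 2 passed for 8 h against 0 h under each label.

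Reversed differences between the labels with quantile normalization were, for Lpl, 0.071 at 2 h, 0.13 at 2 h with amyloid-beta, 0.11 at 8 h with amyloid-beta and 0.093 over all conditions. For Spp1 they were 0.35 at 2 h with amyloid-beta, 0.038 at 8 h, 0.30 at 8 h with amyloid-beta and 0.18 over all conditions. On the pan-microglia scaling, those at 2 h with amyloid-beta reversed for Syk (0.52), Lpl (0.22) and Spp1 (0.57). So did 2 h against 0 h in WT-labelled libraries for Syk (-0.47) and Lpl (-0.44), and the difference in that change between the labels for Clec7a (0.37) and Lpl (0.44). That scaling moved all genes, and the median of all tested genes was then 0.68 between the labels at 2 h with amyloid-beta. It was -0.51 for 2 h against 0 h in WT-labelled libraries and 0.67 for the difference in that change.

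Leaving out 1 library in turn, the genes that passed between the labels numbered 4 to 5 at 0 h, 6 to 8 at 2 h, 4 to 5 at 2 h with amyloid-beta, 4 to 6 at 8 h, 8 at 8 h with amyloid-beta and 9 over all conditions. For amyloid-beta they numbered 0 to 1 in WT-labelled libraries at 8 h and 0 in the other comparisons and in both differences between the labels. For time they numbered 0 to 1 at 2 h and 1 at 8 h in PD-1 KO-labelled libraries, 1 to 5 at 2 h and 3 at 8 h in WT-labelled ones, and 0 to 1 at 2 h and 0 at 8 h for the difference between the labels.

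No paired analysis was possible because the labels give no replicate numbers that tie libraries across groups. The planned edgeR fit was not run, and the fit on only the groups compared was not made for the average over 5 conditions, which uses all groups. Depth limits Ch25h, Cst7 and Itgax most, with as few as 11, 20 and 19 reads in a library.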
